A study of Mus musculus with 3 samples.

Results

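The 8 small nucleolar RNA host genes Gas5, Snhg1, Snhg3, Snhg4, Snhg5, Snhg6, Snhg8 and Snhg12 were examined in mouse splenic T cells. They were taken by symbol from a table of read counts, where they are 8 of 44788 rows, and each was read in all 3 libraries. The libraries form 1 group: T cells of female BALB/c mice 6 to 8 weeks old, separated from the spleen with beads against CD90.2 and kept for 15 h with LZ-8 in a medium with 2% fetal bovine serum. LZ-8 (Ling Zhi-8) is an immunomodulatory protein of the mushroom Ganoderma lucidum. The labels do not say whether each library had its own mouse or culture, and their spread may be no more than technical. There is no untreated arm in these comparisons: the values describe LZ-8-treated cells and cannot show what LZ-8 changed.

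Small nucleolar RNAs (snoRNAs) are short RNAs of the nucleolus that guide the chemical modification of ribosomal RNA. Box C/D snoRNAs guide 2'-O-methylation and box H/ACA snoRNAs guide pseudouridylation. In mammals most of them lie in introns of a host gene and are released from the excised intron, while the exons are joined into a host RNA. The hosts described here give spliced RNAs without a long conserved reading frame. Many such hosts start with a pyrimidine tract, as the messages of ribosomal proteins do (5'TOP genes), and their spliced RNAs are often removed by nonsense-mediated decay. Gas5 was named for its accumulation on growth arrest and is also known as a decoy of the glucocorticoid receptor.

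The host genes show their structure in the sequences of their start sites and of the snoRNAs they hold. Annotated start windows were found in the RefSeq promoter table (build GRCm38.p6) for 6 of the 8 hosts, as 7 windows in all. Each window below has 20 bases before the annotated start and 20 bases from it onward, 5' to 3' on the gene's own strand. Capitals mark the longest run of pyrimidines (C or T) near the start.
Gas5, chr1:161035146-161035185, plus strand: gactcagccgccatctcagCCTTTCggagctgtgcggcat
Gas5, upstream start, chr1:161034581-161034620, plus strand: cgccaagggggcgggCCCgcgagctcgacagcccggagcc
Snhg1, chr19:8723467-8723506, plus strand: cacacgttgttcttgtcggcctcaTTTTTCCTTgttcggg
Snhg3, chr4:132353667-132353706, minus strand: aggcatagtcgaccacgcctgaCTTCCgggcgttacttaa
Snhg5, chr9:88522878-88522917, minus strand: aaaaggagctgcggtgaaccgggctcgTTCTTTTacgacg
Snhg8, chr3:123508317-123508356, minus strand: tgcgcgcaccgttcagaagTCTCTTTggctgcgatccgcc
Snhg12, chr4:132308658-132308697, plus strand: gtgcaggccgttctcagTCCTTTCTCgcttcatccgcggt

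A start at C followed by at least 4 pyrimidines was found in 2 of these 7 windows (28.6%), in 1 window of Gas5 and in that of Snhg8. The same start was held by 2.51% of the 32851 windows of all genes, by 2.4% of the 10524 windows of genes of at least 1 CPM (read counts per 1000000 counts), and by 17.8% of the 73 windows of ribosomal protein genes. A start at C of any kind was found in 3 host windows (42.9%), against 16.3% of all windows and 30.1% of those of ribosomal protein genes. The longest pyrimidine run within 20 bases of the start had a median of 7 bases in the host windows, 5 in all windows and 7 in those of ribosomal protein genes. Snhg1 and Snhg12 held the longest runs among the hosts, of 9 bases, near a start other than a C with 4 pyrimidines after it. These are matches of letters at annotated starts, not measured start sites.

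The GENCODE annotation (GRCm38) places 29 snoRNA genes inside the 8 hosts on the same strand: 9 in Gas5, 8 in Snhg1, 4 in Snhg12, 2 each in Snhg3, Snhg4 and Snhg5, and 1 each in Snhg6 and Snhg8. Overlapping snoRNA annotations were counted as 1 gene, and Mir5117 in Gas5 and Mir1949 in Snhg4 are counted though they carry microRNA symbols. Of these 29 genes, 11 were matched to a row of the count table. Box C/D snoRNAs carry a box C near their 5' end and a box D near their 3' end. Capitals mark TGATGA within the first 20 bases and CTGA within the last 15 bases of the box C/D snoRNAs shown, which have a row of their own.
Snord47 (Gas5), chr1:161038082-161038158, plus strand: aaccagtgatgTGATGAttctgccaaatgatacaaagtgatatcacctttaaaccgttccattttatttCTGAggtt
Snord22 (Snhg1), chr19:8725866-8725991, plus strand: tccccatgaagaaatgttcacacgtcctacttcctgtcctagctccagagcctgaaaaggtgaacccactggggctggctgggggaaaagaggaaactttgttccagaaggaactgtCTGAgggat
Snord87 (Snhg6), chr1:9942463-9942549, minus strand: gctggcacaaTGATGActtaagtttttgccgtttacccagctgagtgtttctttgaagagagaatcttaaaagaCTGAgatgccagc
Snord99 (Snhg12), chr4:132310691-132310764, plus strand: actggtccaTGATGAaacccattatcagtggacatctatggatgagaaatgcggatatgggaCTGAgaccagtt

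Snord22 holds CTGA but not TGATGA in these windows. Both motifs were found, on the snoRNA's own strand, in 16 of the 21 embedded genes looked at that are not named Snora (76.2%). These were taken as box C/D by default, and some of them carry no Snord name. Among named genes of the annotation, both motifs were found in 68 of all 98 Snord genes (69.4%) and in 0 of 42 Snora genes. Box H/ACA snoRNAs end with an ACA a few bases before their 3' end, and Snhg3 and Snhg12 hold several of them. Capitals mark ACA within the last 10 bases.
Snora73a (Snhg3), chr4:132352775-132352979, minus strand: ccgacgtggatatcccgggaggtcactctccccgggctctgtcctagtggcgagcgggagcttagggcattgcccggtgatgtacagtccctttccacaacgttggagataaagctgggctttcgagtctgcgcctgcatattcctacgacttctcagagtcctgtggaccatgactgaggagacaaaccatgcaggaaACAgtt
Snora73b (Snhg3), chr4:132352322-132352526, minus strand: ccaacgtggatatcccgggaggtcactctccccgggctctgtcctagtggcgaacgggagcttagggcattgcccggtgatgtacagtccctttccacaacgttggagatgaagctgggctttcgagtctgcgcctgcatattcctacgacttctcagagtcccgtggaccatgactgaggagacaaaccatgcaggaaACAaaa
Snora16a (Snhg12), chr4:132309464-132309600, plus strand: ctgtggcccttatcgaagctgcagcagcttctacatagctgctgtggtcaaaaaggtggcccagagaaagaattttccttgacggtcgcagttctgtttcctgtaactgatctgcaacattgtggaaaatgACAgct

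The 2 Snora73 genes of Snhg3 are near copies: 198 of their 205 bases are identical (96.6%). How reads of such copies were assigned is not given in the sources used here. ACA was found in 5 of the 6 embedded Snora genes looked at (83.3%), in 40 of 42 Snora genes of the annotation (95.2%) and in 8 of 98 Snord genes (8.16%).

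**Figure D1:**
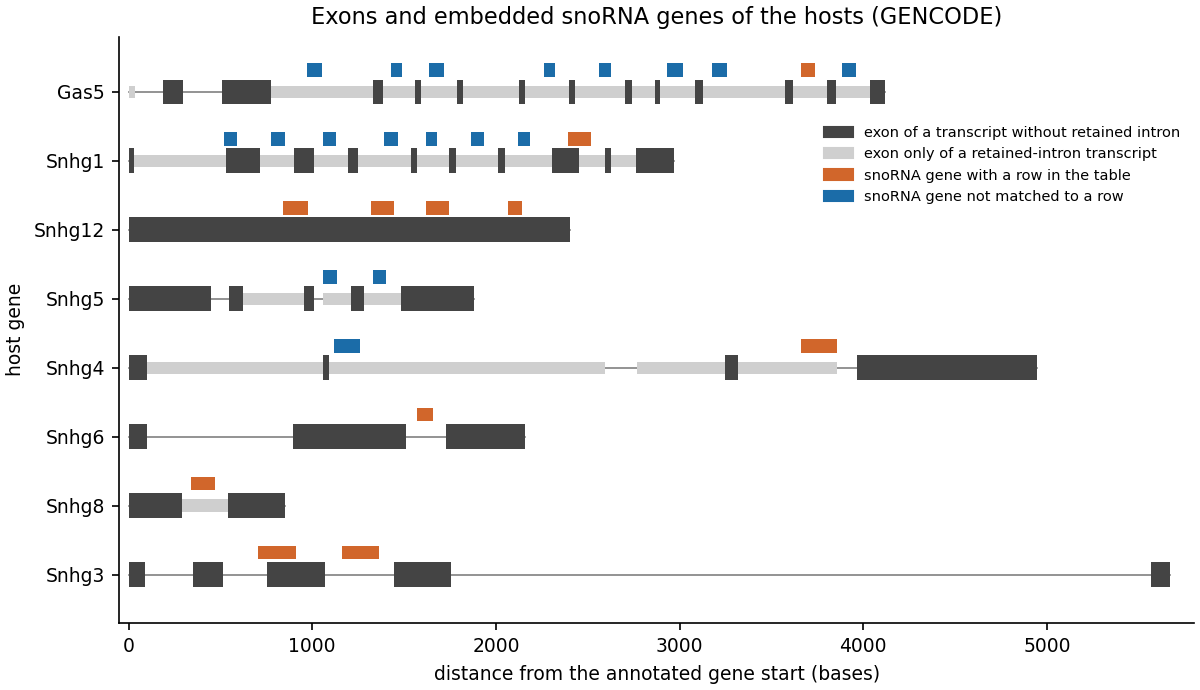
Exons and embedded snoRNA genes of each host, drawn to scale by distance in bases from the annotated gene start. Dark boxes are exons of transcripts without a retained intron, light boxes are exon sequence found only in retained-intron transcripts, and coloured boxes above them are snoRNA genes with (orange) or without (blue) a matched row; the snoRNA genes of Gas5 and Snhg1 alternate with short exons, and Snhg12 is covered by annotated exon along its whole length.

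The libraries held 19041670, 12669690 and 14715992 counts, and 3 counts, the upper limit that a count of 0 allows, came to 0.158 to 0.237 CPM. The labelled cell type was checked against its markers. The 6 T cell markers (Cd3d, Cd3e, Cd3g, Thy1, Cd5 and Lck) summed to 2130 to 2236 CPM, and the 4 B cell markers to 12.9 to 14.4 CPM. Thy1 is CD90, the antigen of the beads, so it is no check apart from the separation itself. For monocytes and macrophages the 4 markers came to 0.0789 to 0.42 CPM, with Csf1r and C1qa at 0. The 3 neutrophil markers summed to 0.0525 to 0.158 CPM with Elane at 0, and the 3 erythroid markers to 1.82 to 2.1 CPM. In such bulk RNA, fewer cells that express a gene and less of its RNA per cell cannot be told apart.

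The 8 hosts were all well above the floor, and Gas5 gave about as many counts as the other 7 hosts together. Together they made up 505, 506 and 500 CPM in the 3 libraries (503 ± 3.07, SD, n = 3), or 0.0503% of all counts. The median host stood at 32.2 CPM, against 26.9 CPM for all rows of at least 1 CPM and 3.37 CPM for the 227 long non-coding rows of at least 1 CPM. Apart from Snhg4, long non-coding rows are those whose symbol is the name of such a gene in GENCODE. Rows under older symbols may thus be missing from them and from the ranks among them. From lowest to highest, the hosts spanned 32.2-fold in CPM, from Snhg3 to Gas5. CPM is not scaled by gene length, so it serves here for a gene's level in each library. The medians and the span above, and the ranks among rows below, depend on gene length too. Levels of different hosts are compared per kilobase further on.

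Gas5 (chr1:161034422-161038539, plus strand, GRCm38) holds the largest number of snoRNA genes of the set between its short exons. It was counted 4865, 3343 and 3767 times, which is 255, 264 and 256 CPM (258 ± 4.7, SD, n = 3). The 3 values lie close together, and the exact 95% Poisson intervals, 248 to 263, 255 to 273 and 248 to 264 CPM, overlap. Its mean put it at rank 707 of all rows and rank 4 of the 2243 long non-coding rows. Its share of the summed host counts was 50.6%, 52.2% and 51.2% (51.3% ± 0.784, SD, n = 3), with exact Clopper-Pearson 95% intervals of 49.6% to 51.6%, 51% to 53.4% and 50.1% to 52.4%.

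Snhg1 (chr19:8723475-8726443, plus strand), the host of a cluster of box C/D snoRNAs that includes Snord22, was counted 1963, 1295 and 1488 times, or 103, 102 and 101 CPM (102 ± 0.99, SD, n = 3). No library stands out, and the coefficient of variation of 0.969% is below the 2.51% that counting error alone gives at its mean count. It was rank 9 of the long non-coding rows and made up 20.3% ± 0.121 of the summed host counts.

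Snhg12 (chr4:132308623-132311024, plus strand) holds 3 box H/ACA snoRNAs and the box C/D snoRNA Snord99. Its counts of 943, 579 and 681 gave 49.5, 45.7 and 46.3 CPM (47.2 ± 2.06, SD, n = 3). Replicate 1 was the highest, but its interval of 46.4 to 52.8 CPM overlaps those of the other libraries, 42.1 to 49.6 and 42.9 to 49.9 CPM. Snhg5 (chr9:88521050-88522929, minus strand), the host of Snord50a and Snord50b, was counted 675, 460 and 553 times, or 35.4, 36.3 and 37.6 CPM (36.4 ± 1.07, SD, n = 3). Its library values overlap within counting error too. Of its 31-base words, 14.7% also occur in transcripts of genes elsewhere in the annotation, mostly in 9330159M07Rik, so its count depends on how reads of several places were treated. For the other 7 hosts that share was 0 to 1.32%.

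Snhg4 (chr18:35553371-35558316, plus strand), whose snoRNA row is Snora74a, was counted 547, 344 and 411 times, or 28.7, 27.2 and 27.9 CPM (27.9 ± 0.788, SD, n = 3). Snhg6 (chr1:9941959-9944118, minus strand), the host of Snord87, was counted 248, 167 and 204 times, or 13, 13.2 and 13.9 CPM (13.4 ± 0.446, SD, n = 3). In neither gene did a library lie outside the others' intervals. Snhg8 (chr3:123507552-123508404, minus strand), the host of Snora24, had counts of 186, 128 and 142, or 9.77, 10.1 and 9.65 CPM (9.84 ± 0.235, SD, n = 3). These 3 hosts varied by 2.39% to 3.34% around their means, where counting error alone gives 4.8% to 8.11%.

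Snhg3 (chr4:132348014-132353686, minus strand), the host of Snora73a and Snora73b, had the lowest count of the set and the widest spread. It was counted 181, 90 and 110 times, or 9.51, 7.1 and 7.47 CPM (8.03 ± 1.29, SD, n = 3). Replicate 1 was 1.34-fold above replicate 2. It lay above the intervals of replicates 2 and 3, 5.71 to 8.73 and 6.14 to 9.01 CPM, though its own interval of 8.17 to 11 CPM overlaps them. The coefficient of variation was 16.1%, against 8.87% from counting error.

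**Figure D2:**
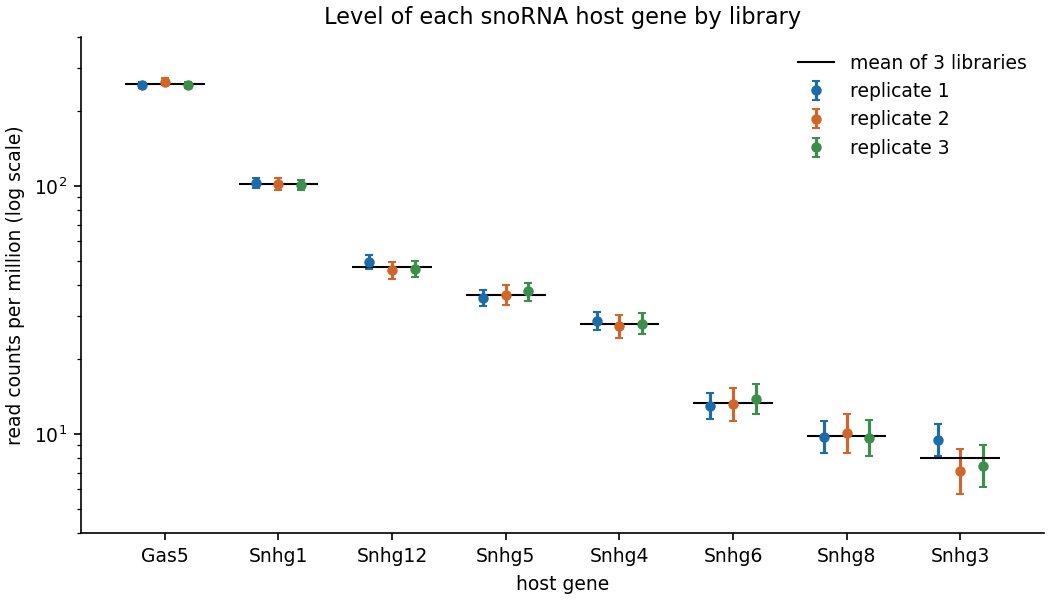
Level of each host in CPM on a log axis, with 1 point per library, exact 95% Poisson intervals as bars and the mean of the 3 libraries as a black line. Gas5 lies between 255 and 264 CPM in every library, and Snhg3, at 7.1 to 9.51 CPM, has the widest relative spread.

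Whether the hosts differed between libraries by more than counting error was read from a test across all genes (edgeR likelihood-ratio test, dispersion fixed at 0, Benjamini-Hochberg adjustment over 13500 genes). At an adjusted p under 0.05, 0 of the 8 hosts were called, against 13.7% of all genes tested and 14.4% of the 9115 genes within the hosts' range of mean CPM. Adjusted p-values of the hosts ran from 0.155 for Snhg3 to 0.966 for Snhg1 and Snhg8 in the edgeR test. At an unadjusted p under 0.05, edgeR gave 1 host, Snhg3, against 27.8% of all genes tested. The range between the highest and lowest library had a median of 0.09 log2 units over the hosts, 0.17 over all genes tested and 0.14 over genes of the same range of CPM. With a single group, this test compares libraries and not conditions, and a p that misses the threshold does not show equal levels.

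**Figure D3:**
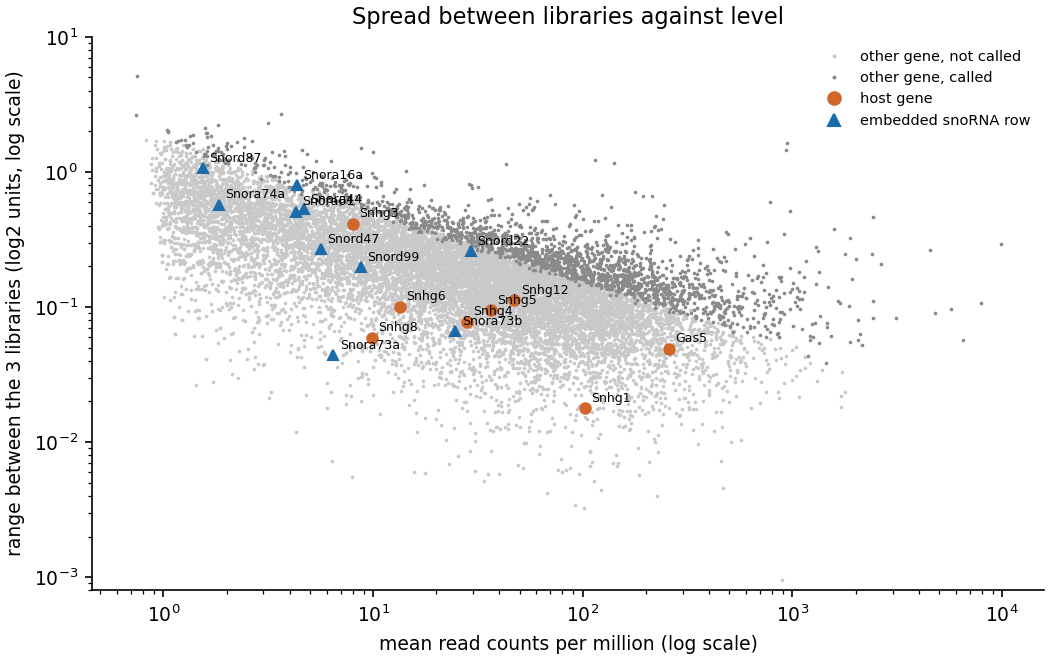
Range between the 3 libraries in log2 units (log axis) against mean CPM (log axis) for the 13500 genes tested, with genes called by the edgeR test in dark grey. The 8 hosts (orange) all lie among the genes not called, with Snhg3 the highest at 0.41 and Snhg1 the lowest at 0.02, and the embedded snoRNA rows (blue) reach 1.06 for Snord87.

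Per kilobase of annotated exon, Gas5 and Snhg1 again led the hosts, and Snhg4 was last. Gas5 stood at 68, 70.2 and 68.1 CPM per kilobase (68.7 ± 1.25, SD, n = 3) and Snhg1 at 34.7, 34.4 and 34.1 (34.4 ± 0.333), a log2 ratio of 1.0 ± 0.03. Snhg5 followed with 21.1 ± 0.619 CPM per kilobase and Snhg12 with 19.6 ± 0.858, and their library values overlap (log2 ratio 0.10 ± 0.10). Snhg6 at 11.7 ± 0.389 and Snhg8 at 11.5 ± 0.276 CPM per kilobase overlap as well (log2 ratio 0.01 ± 0.07). Below them were Snhg3 at 8.14 ± 1.31 and Snhg4 at 5.99 ± 0.169. Thus 5 of the 7 neighbouring pairs in this order had library values that do not overlap, and with 3 libraries the exact two-sided sign-flip permutation test of such a pair cannot give a p below 0.25.

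The order depends on which exons are counted as length, since retained-intron transcripts fill most of some hosts: 20 of 25 annotated transcripts of Gas5, 14 of 18 of Snhg1 and 5 of 6 of Snhg4 are of that kind. Their exon length falls from 3760 to 851 bases for Gas5, from 2969 to 865 for Snhg1 and from 4666 to 1190 for Snhg4 when those transcripts are left out, a scale chosen after the data were seen. On it Gas5 stood at 304 ± 5.52, Snhg1 at 118 ± 1.14 and Snhg5 at 34.9 ± 1.03 CPM per kilobase, and Snhg4 moved from rank 8 to rank 4 at 23.5 ± 0.662. Snhg3 was then the lowest at 8.14 ± 1.31. Per kilobase of the longest transcript, Gas5 stood at 101 ± 1.84 and Snhg1 at 37.4 ± 0.363, and only 3 of 7 neighbouring pairs did not overlap. Without retained introns, and without length scaling, 7 of 7 pairs did not overlap. The pairs that overlapped per kilobase of annotated exon took different directions on these 2 scales. The log2 ratio of Snhg6 to Snhg8 was -0.48 without retained introns and 0.44 without length scaling, and that of Snhg5 to Snhg12 was 0.83 and -0.37. Snhg3, Snhg6 and Snhg12 have 0 transcripts annotated as retained-intron, so their lengths of 986, 1146 and 2402 bases stay the same without retained introns. For Snhg12 this length is its whole span. Ratios of other hosts to these hosts on that scale thus depend on which transcripts carry the label. Gas5 was at rank 1 and Snhg1 at rank 2 on each of these scales and without length scaling.

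**Figure D4:**
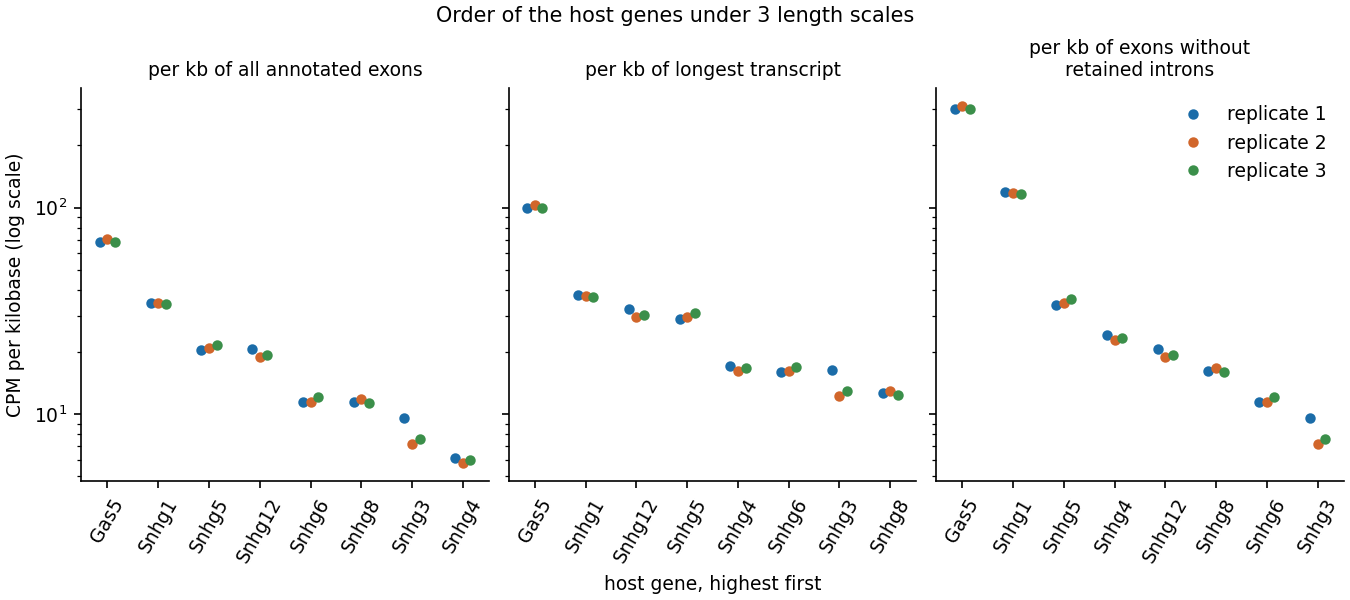
CPM per kilobase (log axis) of each host in each library, with hosts sorted from highest to lowest on 3 length scales: all annotated exons, the longest transcript, and exons without retained-intron transcripts. Gas5 and Snhg1 lead in each panel, and Snhg4 is last in the left panel and at rank 4 in the right panel.

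The embedded snoRNAs were counted as rows of their own at 11 places, and the sequences of 7 of them are given above. Together these rows made 92.1 ± 3.7 CPM (SD, n = 3), or 18.3% ± 0.82 of the summed counts of the 8 hosts. That percentage depends on which of the 29 embedded genes were matched to a row. Rows were matched for 1 of 9 in Gas5, 1 of 8 in Snhg1 and 0 of 2 in Snhg5. In counts, not scaled by length, 10 of the 11 snoRNA rows were below their host row in every library, and 1, Snora73b, was above. The snoRNAs are far shorter than their hosts, and per kilobase of annotated exon, a comparison added after the data were seen, 9 of the 11 rows were above their host in every library, 1 (Snora24) was below and 1 (Snord47) was above in some and below in others. Snord22 stood at 233 ± 21.1 CPM per kilobase against 34.4 ± 0.333 for Snhg1, and Snora73b at 120 ± 3.5 against 8.14 ± 1.31 for Snhg3. With exons of transcripts without retained introns as host length, 8 rows were above and 3 (Snord47, Snora74a and Snora24) below, and with the longest transcript 4 were above, 3 below and 4 mixed. The lengths of Snhg3, Snhg6 and Snhg12 are the same with and without retained-intron transcripts. On all 3 length scales Snord22, Snora73a, Snora73b and Snord99 were above their host and Snora24 was below. Snora74a was above per kilobase of annotated exon and below on the other length scales. The remaining rows were above in some libraries and below in others on 1 of the length scales. Snora73b was also above its host in counts, and Snora24 was also below. The snoRNA levels per kilobase use the bare annotated length, 74 to 205 bases, with no allowance for reads that reach beyond it. Such reads weigh more for a short gene than for its host, and their share was not tested. How the library protocol recovers RNAs of this length was not tested, and reads of unspliced host RNA over a snoRNA cannot be told apart from reads of the snoRNA in these counts. The snoRNA also overlaps an exon of a host transcript without a retained intron for 7 of the 29 genes, namely the 4 of Snhg12, Snora73a, Snord22 and 1 further gene of Snhg1.

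Snora73b was counted 479, 317 and 351 times, or 25.2, 25 and 23.9 CPM (24.7 ± 0.717, SD, n = 3), which is 265%, 352% and 319% of its host Snhg3. Its near copy Snora73a had 126, 81 and 94 counts, or 6.47 ± 0.131 CPM, and 81.7% ± 10.7 of Snhg3. In both rows the 3 libraries lie closer together than those of Snhg3 itself, with ranges of 0.07 and 0.04 log2 units against 0.41. Both snoRNAs belong to the U17 family, which takes part in the cleavage of ribosomal RNA precursors.

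Snord22 had 548, 343 and 475 counts, or 28.8, 27.1 and 32.3 CPM (29.4 ± 2.65, SD, n = 3), and 28.8% ± 2.82 of its host Snhg1. Snord47, the row of Gas5, had 120, 66 and 79 counts, or 5.63 ± 0.59 CPM, which is 2.18% ± 0.256 of Gas5. This was the lowest percentage in counts; per kilobase of annotated exon Snord47 stood at 73.1 ± 7.67 against 68.7 ± 1.25 for Gas5, and the lowest row relative to its host was Snora24, at 3.56 ± 1.7 against 11.5 ± 0.276 for Snhg8. In Snhg12, Snord99 reached 18.5% ± 0.72 of the host with 181, 108 and 121 counts, while the box H/ACA snoRNAs Snora44, Snora16a and Snora61 reached 9.92% ± 1.75, 9.28% ± 2.79 and 9.1% ± 1.53. Snora74a of Snhg4 had 28, 24 and 32 counts (6.63% ± 1.37 of its host). Snora24 of Snhg8 had 9, 3 and 10 counts, too few to enter the test between libraries.

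Of the 10 snoRNA rows tested, 2 were called as different between libraries in the edgeR test, set against 13.7% of all genes and 11.1% of the 72 Snord and Snora rows tested. Snord87 of Snhg6 had 45, 14 and 17 counts, or 2.36, 1.1 and 1.16 CPM, with replicate 1 above the others (edgeR adjusted p = 0.0482). Snora16a had 59, 68 and 67 counts, or 3.1, 5.37 and 4.55 CPM, with replicate 1 below the others (edgeR adjusted p = 0.0431). Their hosts Snhg6 and Snhg12 were not called. Both calls sit close to the threshold: without the filter on low counts the adjusted p-values from edgeR were 0.0698 and 0.0721, and without replicate 1 they were 0.961 and 0.651. Without replicate 2 they were 0.0815 and 0.168, and without replicate 3 they were 0.101 for Snord87 and 0.0383 for Snora16a, again from edgeR.

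**Figure D5:**
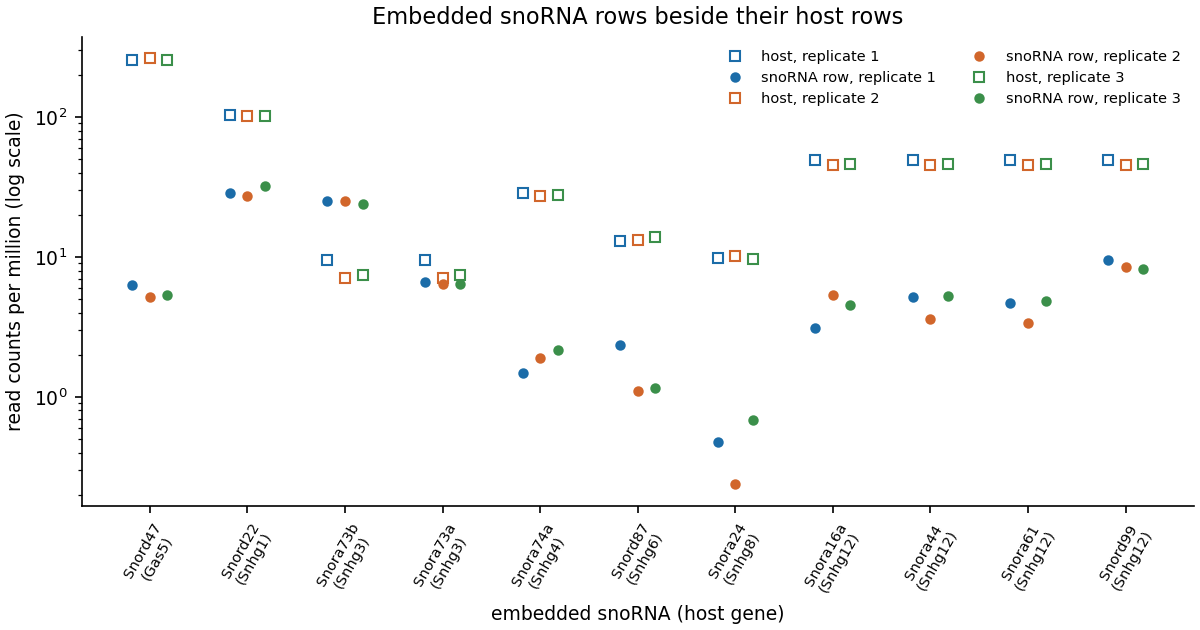
CPM (log axis) of each embedded snoRNA row (filled circles) and of its host row (open squares) in the 3 libraries, with the host named in brackets. Without length scaling Snora73b is the row above its host, at 23.9 to 25.2 CPM against 7.1 to 9.51 CPM for Snhg3, whereas per kilobase of annotated exon, not drawn here, 9 of the 11 rows are above their host in every library. That scale makes no allowance for reads that reach beyond a short snoRNA gene.

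Several hosts start beside another gene, and use of strand in the counting is not given in the sources used here. Slc3a2, the heavy chain of amino acid transporters at the T cell surface, starts 106 bases from Snhg1 on the opposite strand and stood at 347 ± 5.73 CPM, 3.4 times Snhg1. Rcc1, the exchange factor of the nuclear GTPase Ran, starts 81 bases from Snhg3 on the same strand, shares 135 exon bases with it, and stood at 126 ± 5.37 CPM, 15.7 times Snhg3. Zbtb37, a zinc finger gene, starts 427 bases from Gas5 on the opposite strand and stood at 24 ± 2.06 CPM, 0.0928 times Gas5. Mcmdc2, whose exons overlap those of Snhg6 by 127 bases on the opposite strand, had 1, 0 and 0 counts. The share of Rcc1 reads in the Snhg3 row was not tested. Gm17300 shares 705 exon bases with Snhg3 on the opposite strand, and Gm28285 starts 33 bases from Snhg4 on the same strand and shares 246 exon bases with it; neither was matched to a row, so their levels were not analysed here.

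Other non-coding snoRNA hosts were read from a list of 15 genes, of which 13 were matched to a row, 6 of them under an older symbol. Of these, 8 stood at 1 CPM or more. The median of the 13 rows, not scaled by gene length, was 6.74 CPM, below the 32.2 CPM of the 8 hosts above. The highest were Snhg17 (row 9430008C03Rik) at 72 ± 1.67 CPM, Zfas1 (1500012F01Rik) at 63.6 ± 4.6, Snhg16 (1810032O08Rik) at 35.6 ± 1.71 and Snhg15 (Gm11974) at 31.5 ± 1.02. Snhg11 had no read in any library. In the test between libraries 1 of 8 was called, against 13.7% of all genes tested, namely Snhg20 (2810008D09Rik), at 8.14, 11.8 and 10.1 CPM (edgeR adjusted p = 0.0399). Among all 36 non-coding hosts that the annotation gives with a row, Gas5 was at rank 2 and Snhg1 at rank 5 in CPM per kilobase of exon. Cct6a, which that annotation classes as non-coding though it is known as a chaperonin subunit gene, was at rank 1 with 108 ± 2.81 CPM per kilobase, 2410006H16Rik at rank 3 with 61.3 ± 11.7 and AI506816 at rank 4 with 38 ± 2.36. Snhg5 was at rank 8, Snhg12 at rank 10, Snhg6 at rank 13, Snhg8 at rank 14, Snhg3 at rank 17 and Snhg4 at rank 18.

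The genes of the proteins that bind the snoRNAs were all read. All 4 genes of the box C/D core were read at a median of 182 CPM: Nop56 at 341 ± 4.64, Nop58 at 279 ± 7.87, Nhp2l1 at 85.8 ± 3.97 and Fbl, the methyltransferase, at 73.2 ± 1.91. None of the 4 was called in the edgeR test between libraries, against 13.7% of all genes tested. The 4 genes of the box H/ACA core had a median of 112 CPM, with Dkc1, the pseudouridine synthase, at 227 ± 0.847, Nhp2 at 120 ± 5.71, Nop10 at 104 ± 10.4 and Gar1 at 103 ± 4.98. Here 1 of 4 was called, Nop10, at 107, 93.1 and 114 CPM (edgeR adjusted p = 1.50e-05). The 10 genes of snoRNP assembly had a median of 41.5 CPM, led by Nolc1, a nucleolar chaperone, at 401 ± 4.37 CPM, and 0 of them were called.

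Genes of nonsense-mediated decay and of the regulation of 5'TOP messages were read too, and their action on these host RNAs was not tested. The 10 genes of nonsense-mediated decay had a median of 82.6 CPM, and among the highest were the kinase Smg1 at 585 ± 33.4, Smg5 at 278 ± 4.98 and the helicase Upf1 at 233 ± 2.57. Of these 10 genes, 3 were called in the edgeR test between libraries, against 13.7% of all genes tested. Smg1 and Upf2 were among them, with Smg1 at 604, 604 and 546 CPM and replicate 3 the lowest. The 5 genes that act on 5'TOP messages had a median of 169 CPM, with Larp1, which binds the 5'TOP tract, at 881 ± 9.8 CPM and Cnbp at 567 ± 0.0719. Of the 5, 1 was called, against 13.7% of all genes tested: Eif4ebp2, an inhibitor of translation initiation, at 137, 167 and 158 CPM. These levels describe the same libraries as the hosts and give no relation between the lists and the hosts.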

How the data were processed

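RNA was sequenced from 3 libraries of 1 group (Ion Proton RNA-seq kit, per the labels' protocols). The authors deposited 1 table of unnormalized read counts, with gene symbols as rows and libraries as columns. The build mm10 is from the submitters' processing notes; the sources used here do not name the aligner, counter or annotation, nor how strand and multi-mapping reads were handled. CPM was computed from column totals. Exons and snoRNA genes came from GENCODE vM21 (GRCm38, the same assembly as mm10), start windows from RefSeq; Snhg4 was matched by its RefSeq transcript accession.

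Poisson and Clopper-Pearson intervals (95%) cover counting error only. Differences between libraries were tested with edgeR 4.0.16 (R 4.3.3; TMM factors 0.996 to 1.003, dispersion 0, genes reaching 1 CPM in 2 or more libraries, adjusted p under 0.05). The test was also run on simulated Poisson counts. These follow its own model, so they check its working and not its fit to real libraries. No contrast between groups could be fitted, and p-values measure only the spread between these samples. DESeq2 1.42.0 size factors and other filters and lengths were alternatives.

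The text names all hosts, up to 4 highest genes and any without a read of each list, the 5 highest annotated hosts per kilobase, and genes starting within 2000 bases of a host or overlapping its exons; called list members (Snhg20, Upf2) were added after their values were seen, and some genes under this rule are not reported here. The members and lists were chosen with earlier results of these data known.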

Additional observations from a re-analysis of the deposited data

How the results depend on the processing

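No paired analysis was possible because there is only 1 group of samples. Of the 8 hosts, 0 were called as different between libraries under each of 7 alternatives (DESeq2 size factors, unscaled totals, 2 other filters and each replicate left out), where edgeR gave at most 1 host at an unadjusted p under 0.05, Snhg3. Among all genes tested, 1847 of 13500 were called in the main setting, 1845 of 13500 with DESeq2 size factors and 1839 of 13500 with unscaled totals. With the other filters it was 1668 of 22914 (at least 1 read) and 1815 of 13720 (at least 10 counts in every library). With a replicate left out, which also leaves fewer samples, it was 1120 of 13211, 1193 of 13211 and 742 of 13216 without replicate 1, 2 and 3. The summed level of the hosts was 503 CPM, 496 with DESeq2 size factors and 553 without pseudogene, mitochondrial and ribosomal RNA rows in the total. The share of Gas5 was 51.3% of counts and 37.9% per kilobase of exon. With the longest transcript as length, 3 rather than 5 neighbouring pairs did not overlap, and the log2 ratio of Snhg8 to Snhg3 turned from 0.51 to -0.11. The log2 ratio of Snhg3 to Snhg4 turned from 0.43 to -0.28 with that length, to -1.81 without length scaling and to -1.54 without retained introns, as the lengths entered differ. The number of embedded snoRNA rows below their host in every library was 10 in counts, 1 per kilobase of annotated exon, and 3 per kilobase of the longest transcript or of exons without retained introns, comparisons added after the data were seen. Snhg3, Snhg8 and Snhg6, at 8.03 to 13.4 CPM, rest on 90 to 248 counts per library, which limits their precision.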

Other observations

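Coding hosts of snoRNAs had a higher median CPM, which is not scaled by gene length, than the non-coding hosts in the same libraries. A median per kilobase was not computed for either class. The annotation gives 279 coding genes with a snoRNA gene inside their span, of which 266 had a row, 208 stood at 1 CPM or more and 34 had no read, with a median of 56.5 CPM. The 72 non-coding hosts had 36 rows, 23 of them at 1 CPM or more, with a median of 7.38 CPM. Per kilobase of exon, genes of translation were among the highest coding hosts: Rpl4 at 1558 ± 39.7 CPM per kilobase, the elongation factor Eef2 at 1439 ± 41.8, Rpl32 at 570 ± 18.3 and Rpl13a at 473 ± 22.2 (SD, n = 3). In the edgeR test between libraries, 49 of 209 coding hosts (23.4%) and 3 of 23 non-coding hosts (13%) were called at an adjusted p under 0.05, against 13.7% of all genes tested; the difference between the classes was not tested.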
